A study of Homo sapiens with 4 samples.

Results

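Antisense-named genes are genes whose symbol is that of another gene followed by -AS and a number. The gene that gives the name, called the partner here, lies on the opposite strand in nearly all cases. Of 1817 such genes in the count table of 61267 genes, 1193 had at least 1 read, and the 480 whose mean over the 4 libraries reached 1 CPM (counts-per-million) of total reads are described here. The partner of 471 of them is in the table, as 462 distinct genes. The libraries came from SU-DHL-2, an established line of human lymphoma cells (diffuse large B-cell lymphoma). There were 2 libraries of cells given vehicle and 2 of cells given Spautin-1 at 10 µM for 36 h. Spautin-1, a small molecule, is known to inhibit USP10 and USP13, enzymes that remove ubiquitin from proteins. No genetic change is given for either group. The labels do not say that replicates were separate cultures, so each p-value reflects only how far these 4 libraries vary, and that variation may be technical.

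Antisense transcription takes several forms. A divergent antisense RNA starts near the partner's promoter and runs away from it, a convergent one runs towards the partner's end, and others begin inside an intron. Some of these RNAs act on their partner in cis, through transcription across it or through chromatin factors, some act elsewhere, and most have no established function. Many short divergent transcripts are removed in the nucleus by the RNA exosome soon after they are made.

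The members were chosen by their measured level, the mean over all 4 libraries, and these levels are therefore a description. The 3 lowest members were VASH1-AS1 at a mean of 1.01, TOB1-AS1 at 1.02 and HOXB-AS4 at 1.02 CPM. Just below the limit were DDX11-AS1 at 0.996, BCL10-AS1 at 0.991 and RBM12B-AS1 at 0.991. The median member was at 4.60 and the highest at 829. All 480 passed the filter on low counts. For 50 members 1 group's mean was under 1 CPM after scaling by the trimmed mean of M values (TMM), the scale of all CPM values from here on, vehicle for 20 and Spautin-1 for 30. Of those 50, 5 were higher (FKBP14-AS1, ERICH3-AS1, TNFRSF14-AS1, BHLHE40-AS1 and PANK1-AS1) and 9 lower past the threshold, among them TMSB15B-AS1, PDLIM7-AS1, SBNO1-AS1, BAZ2B-AS1, KANSL1L-AS1 and RASSF1-AS1. They passed the level rule only through the group where they were high, so the rule itself selects for their difference. Of the other 430 members, 30 were higher and 59 lower.

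The vehicle libraries held 34115420 and 38362526 counts in total, the Spautin-1 libraries 38325536 and 34893634. Members took 0.876% and 0.855% of the counts in vehicle libraries and 0.795% and 0.802% in Spautin-1 libraries. All 10 B cell markers listed were tested, with summed levels of 739 to 1170 CPM. Of them 6 were higher and 0 lower with Spautin-1, against 11.5% higher and 10.5% lower of all genes tested. MS4A1 was the highest, with group means of 410 CPM for vehicle and 618 CPM for Spautin-1. CD79B was lower without overlap of the groups but missed the threshold (log2 fold change -0.42, edgeR adjusted p = 0.0685). The summed levels of 6 T cell, 5 myeloid and 4 fibroblast markers stayed at or under 1.41 CPM in every library, with the T cell receptor gene TRAC at 0. The 4 epithelial markers summed to 47.6 to 57.2 CPM, mostly from EPCAM.

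The layout of members and partners bears on every value below. Of the 471 pairs, 190 were divergent with overlap, their starts a median of 966.5 bases apart. In 127 pairs the antisense-named gene lay inside the partner and in 98 it was convergent and overlapping. In 40 pairs the partner lay inside the antisense-named gene, 13 were divergent without overlap, 2 (FAM131B-AS2 and HILPDA-AS1) lay on the partner's strand in the table, and LYRM4-AS1 was convergent without overlap. Bases of exon shared with an opposite-strand gene were present in 448 of the 480 members.

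Over such shared bases the table does not keep the strands apart. The library kit is stranded, per the labels, while the counting's strand setting was not given in the sources used here. Across the table there were 870 pairs in which all exonic bases of the inner gene lay inside exons of the outer gene on the other strand. In each of the 4 libraries, the inner gene had no more reads than the outer gene in 870 of these 870 pairs. The inner gene had any reads in 564 of the 870, and in the rest this outcome was fixed. Of these pairs, 301 had at least 40 reads for the inner gene in all, and in 11 the inner gene is a member named for the outer gene. GJD3-AS1, which lies wholly in exons of the connexin gene GJD3, had 20, 90, 65 and 90 reads in vehicle 1, vehicle 2, Spautin-1 1 and Spautin-1 2, and GJD3 had the same 4 counts. Reads of a member and of an opposite-strand gene therefore cannot be told apart where exons overlap. Reads from a partner's unspliced RNA can likewise fall in antisense exons within its introns. For each member a lower bound was computed for the share of its reads that no gene sharing its exonic bases could also have received, by subtracting all reads of those genes. This read bound was 0 for 399 members and at least 50% for 55. It takes no account of unspliced RNA, so reads of a member within a partner's intron may still be the partner's.

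**Figure D1:**
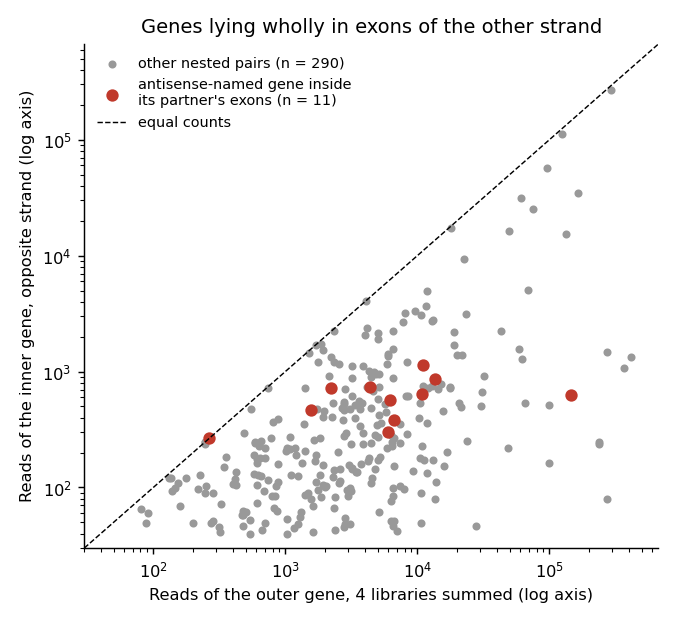
Reads of genes lying wholly inside exons of an opposite-strand gene (vertical, log axis) against reads of that outer gene (horizontal, log axis), summed over the 4 libraries, for the 301 pairs with at least 40 reads. Each point is a pair, the 11 antisense-named genes inside their partner are red, and no point lies above the dashed line of equal counts.

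Among the 55 members with a read bound of at least 50%, 4 rose and 4 fell with Spautin-1 (edgeR's quasi-likelihood test, adjusted p under 0.05 by Benjamini and Hochberg over 18368 genes). Of all genes tested, 22.0% were called by this rule. The 4 that rose were UST-AS2, TP73-AS1, POU2F2-AS2 and PANK1-AS1. The 4 that fell were IFNG-AS1, NAALADL2-AS2, NUTM2B-AS1 and PSMA3-AS1. In these bulk libraries a lower level in every cell and fewer cells with the RNA cannot be told apart. The median change over all 55 was -0.09 on the log2 scale, against -0.01 over all genes tested. RefSeq promoter windows, from 250 bases before to 50 bases after a start, exist for 356 of the 480 members. The windows of 4 of these 8 genes are shown because UST-AS2 and POU2F2-AS2 share no exonic base with an opposite-strand gene, IFNG-AS1 shares bases with 1 same-strand pseudogene only (24.0% of its exonic bases), and PANK1-AS1 shares part of its window with its partner. Capitals mark TATAAA in POU2F2-AS2, and in PANK1-AS1 the 127 bases that also lie in the window of PANK1 on the other strand.
UST-AS2: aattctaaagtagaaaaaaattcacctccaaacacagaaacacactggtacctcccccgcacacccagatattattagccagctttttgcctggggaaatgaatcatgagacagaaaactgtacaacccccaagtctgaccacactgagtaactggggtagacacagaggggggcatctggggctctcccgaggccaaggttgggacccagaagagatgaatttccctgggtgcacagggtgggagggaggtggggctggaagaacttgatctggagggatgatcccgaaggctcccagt
POU2F2-AS2: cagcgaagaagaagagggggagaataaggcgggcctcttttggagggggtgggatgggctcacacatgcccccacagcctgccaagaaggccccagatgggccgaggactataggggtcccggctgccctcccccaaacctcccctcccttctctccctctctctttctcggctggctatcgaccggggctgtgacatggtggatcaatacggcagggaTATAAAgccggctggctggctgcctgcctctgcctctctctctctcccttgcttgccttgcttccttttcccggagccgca
IFNG-AS1: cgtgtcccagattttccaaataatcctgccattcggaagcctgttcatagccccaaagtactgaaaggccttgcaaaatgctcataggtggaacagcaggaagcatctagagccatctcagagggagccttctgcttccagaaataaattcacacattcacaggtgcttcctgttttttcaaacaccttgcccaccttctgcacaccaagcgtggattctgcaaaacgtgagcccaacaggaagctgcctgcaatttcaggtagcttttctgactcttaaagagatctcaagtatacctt
PANK1-AS1: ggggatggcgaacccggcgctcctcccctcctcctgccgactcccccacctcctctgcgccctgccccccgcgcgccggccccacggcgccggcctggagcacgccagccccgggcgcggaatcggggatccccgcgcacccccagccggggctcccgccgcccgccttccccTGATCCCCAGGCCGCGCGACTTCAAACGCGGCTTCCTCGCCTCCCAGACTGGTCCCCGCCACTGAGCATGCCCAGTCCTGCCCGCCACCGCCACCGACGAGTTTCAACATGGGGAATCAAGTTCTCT
These windows are, on GRCh38.p14, chr6:149032612-149032911 on the minus strand for UST-AS2, chr19:42152286-42152585 on the plus strand for POU2F2-AS2, chr12:67989197-67989496 on the plus strand for IFNG-AS1 and chr10:89645020-89645319 on the plus strand for PANK1-AS1. The RefSeq start lay 88, 33, 2 and 2 bases from the start in the count table. The TATA box (letters TATAAA), the CCAAT box (CCAAT), the E-box (CACGTG) and the cAMP response element (TGACGTCA) were searched on both strands, and none of these words lies within another. A TATAAA was found in the POU2F2-AS2 window, 31 bases before the start, and occurs in 11.5% of 35116 RefSeq windows of this length. No other match was found in these 4 windows. The CCAAT box occurs in 34.6%, the E-box in 7.26% and the cAMP response element in 1.85% of all windows. The PANK1-AS1 window holds 34 CpG dinucleotides and is 74.3% G or C, against medians of 14 and 58.7% over all windows. The windows of UST-AS2 and IFNG-AS1 hold 3 and 4 CpG.

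UST-AS2 showed the largest increase of all 103 members past the threshold. It is annotated on chromosome 6 from 149027700 to 149032573, minus strand, with 130 exonic bases, and lies within UST without touching its exons. UST encodes uronyl 2-O-sulfotransferase, which sulfates chondroitin and dermatan sulfate chains. UST-AS2 had 65 and 94 reads in the vehicle libraries and 728 and 494 in the Spautin-1 libraries. The levels were 1.87 and 2.43 CPM against 19.4 and 14.2 CPM. Both Spautin-1 libraries were far above both vehicle libraries, a 7.79-fold increase (log2 fold change 2.96, SE 0.23, edgeR adjusted p = 6.55e-06). UST stood at 1.06 and 1.32 CPM with vehicle and at 2.18 and 2.60 CPM with Spautin-1, without overlap, and missed the threshold (log2 fold change 0.999, edgeR adjusted p = 0.0563). Ratios of a member to its partner were tested with limma. As planned, with no variance trend, that test called 0 ratios; the ratio p-values given here come from a fit with a variance trend, added after the data were seen. In that fit the ratio of UST-AS2 to UST rose by 1.96 on the log2 scale (SE 0.33, limma adjusted p = 0.00942). That ratio call was lost without vehicle replicate 1 (limma adjusted p = 0.12) and without Spautin-1 replicate 2 (limma adjusted p = 0.0618). The increase of UST-AS2 itself held in every fit that left out a library, at 2.71 to 3.18.

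POU2F2-AS2 was the only member to rise while its partner fell past the threshold. POU2F2 encodes OCT2, a transcription factor of the B cell lineage. POU2F2-AS2 lies on chromosome 19 from 42152569 to 42157523, plus strand, within POU2F2 and off its exons. It stood at 8.83 and 8.07 CPM with vehicle and at 16.0 and 13.96 CPM with Spautin-1. POU2F2 stood at 241 and 271 CPM and fell to 172 and 167 CPM. The groups did not overlap for either gene. The antisense-named gene changed by 0.82 (SE 0.17, edgeR adjusted p = 0.005) and POU2F2 by -0.60 (SE 0.10, edgeR adjusted p = 0.00177), both on the log2 scale. Their ratio rose by 1.41 (SE 0.18, limma adjusted p = 0.00338). The call for POU2F2-AS2 was lost without Spautin-1 replicate 1, at 0.71 (edgeR adjusted p = 0.0605). The ratio call was lost without vehicle replicate 1 (limma adjusted p = 0.0514) and without Spautin-1 replicate 2 (limma adjusted p = 0.0623). POU2F2-AS1, another antisense-named gene within POU2F2, stood at 10.0, 8.51, 10.8 and 10.3 CPM and did not pass the test (0.19, edgeR adjusted p = 0.489).

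IFNG-AS1 is annotated on chromosome 12 from 67989445 to 68234686, plus strand, and the interferon gamma gene IFNG lies inside its span. In T cells this RNA is known for its role in IFNG expression. IFNG-AS1 stood at 16.4 and 12.5 CPM with vehicle and at 5.41 and 4.41 CPM with Spautin-1, without overlap. It fell by 1.55 on the log2 scale (SE 0.20, edgeR adjusted p = 0.000292), which is 2.94-fold. IFNG had at most 0.0577 CPM in any library and was not tested. At least 68.9% of the IFNG-AS1 reads lay beyond the 1 annotated gene that shares its exonic bases, the pseudogene HNRNPA1P70 on the same strand. That pseudogene fell as well, by 1.25 (edgeR adjusted p = 0.00623), and reads of such a copy can also come from its parent gene.

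TP73-AS1 and TP73 rose together. TP73 encodes p73, a transcription factor of the p53 family. TP73-AS1 stood at 16.6 and 13.3 CPM with vehicle and at 32.6 and 35.5 CPM with Spautin-1 (log2 fold change 1.19, SE 0.15, edgeR adjusted p = 0.000265). TP73 stood at 4.03 and 4.65 CPM and at 8.74 and 8.88 CPM (1.02, SE 0.20, edgeR adjusted p = 0.00391). The groups did not overlap for either gene. Their exons share 633 bases, and at least 72.2% of the TP73-AS1 reads lay beyond all genes that share its exonic bases. That bound covers TP73-AS1 alone. TP73 had fewer reads than TP73-AS1, so its own rise is not separated from reads of TP73-AS1. Their ratio did not pass the test (0.18, SE 0.23, limma adjusted p = 0.663).

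PANK1-AS1 starts 30 bases from PANK1, whose product catalyses the first step of coenzyme A synthesis. It had 19 and 30 reads with vehicle and 71 and 65 with Spautin-1, and rose 2.83-fold (SE 0.42 on the log2 scale, edgeR adjusted p = 0.0226). It reached the level limit only through the Spautin-1 libraries. PANK1 had 11.2, 13.4, 10.47 and 10.2 CPM in the 4 libraries and was not called (-0.25, edgeR adjusted p = 0.338). The ratio rose by 1.69 (SE 0.33, limma adjusted p = 0.0149), a call lost without vehicle replicate 1 (limma adjusted p = 0.13) and without Spautin-1 replicate 2 (limma adjusted p = 0.11). The call for PANK1-AS1 was lost without Spautin-1 replicate 1 (edgeR adjusted p = 0.0719) and without Spautin-1 replicate 2 (edgeR adjusted p = 0.0796).

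NAALADL2-AS2, inside NAALADL2 and off its exons, fell from 50.8 and 41.1 CPM to 27.1 and 28.3 CPM (-0.73, SE 0.14, edgeR adjusted p = 0.00303). NAALADL2 itself stood at 2.39, 2.82, 2.53 and 0.836 CPM, with overlapping groups. PSMA3-AS1 fell from 56.6 and 53.8 CPM to 41.5 and 39.3 CPM (-0.45, edgeR adjusted p = 0.0191), while PSMA3, a subunit of the proteasome core, stood at 68.3, 67.7, 71.3 and 71.3 CPM and was not called. NUTM2B-AS1 fell from 12.1 and 9.80 CPM to 6.05 and 7.87 CPM (-0.66, edgeR adjusted p = 0.0362). Its partner NUTM2B was lower too, at -1.56 to -1.02 over the fits that left out a library, but was not called in the main fit. It was called without a filter on low counts (-1.27, edgeR adjusted p = 0.0397). The same held with a filter of 1 CPM in 2 libraries (edgeR adjusted p = 0.0409) and with a replicate block (edgeR adjusted p = 0.0435). The PSMA3-AS1 call was lost without Spautin-1 replicate 1 (edgeR adjusted p = 0.129) and replicate 2 (edgeR adjusted p = 0.265). The NUTM2B-AS1 call was lost without vehicle replicate 1 (edgeR adjusted p = 0.0629), Spautin-1 replicate 1 (edgeR adjusted p = 0.285) and Spautin-1 replicate 2 (edgeR adjusted p = 0.051).

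**Figure D2:**
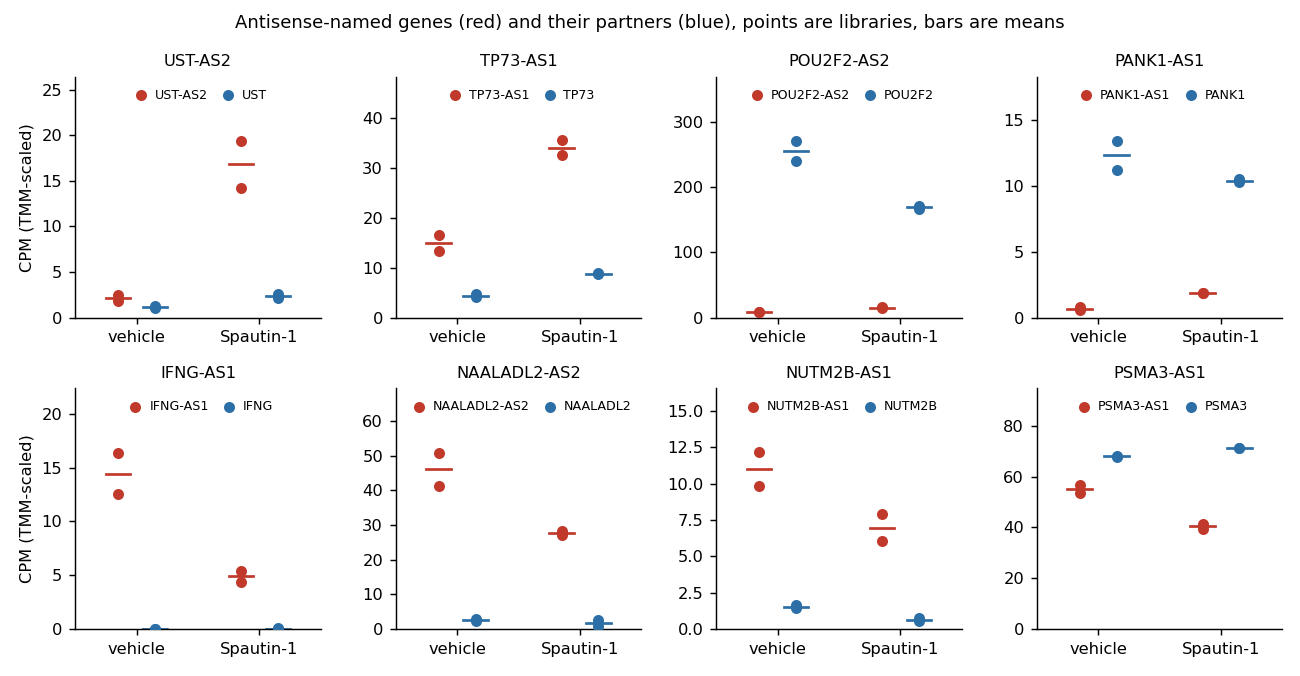
Levels in CPM (vertical axis, from 0, TMM-scaled) of the 8 members past the threshold with at least 50% of reads beyond all genes that share their exonic bases (red) and of their partners (blue), with vehicle and with Spautin-1. Points are libraries and bars are group means; UST-AS2 goes from 1.87 and 2.43 to 19.4 and 14.2 CPM, while POU2F2 falls as POU2F2-AS2 rises.

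Over all 480 members, 103 changed, 35 higher and 68 lower. That is 21.5% of members, against 22.0% of all genes tested and 26.3% of the 14341 tested at the same level limit. The split by direction was 7.29% higher and 14.2% lower, against 11.5% and 10.5% of all genes and 13.7% and 12.6% of those at the level limit. The median change was -0.14 on the log2 scale, against -0.01 over all genes tested. The groups did not overlap for 304 members, with Spautin-1 above in 118 and below in 186; among all genes tested 61.4% did not overlap, 30.8% above and 30.6% below. Of the 103, 39 changed at least 2-fold, and 25 of these 39 were under 5 CPM. Called members went from 29 of 251 under 5 CPM to 42 of 156 between 5 and 20 CPM and 32 of 73 above 20 CPM. Shares of all genes at these levels or past 2-fold were not computed, so these counts are a description only. Leaving out Spautin-1 replicate 1 gave 19 higher and 48 lower, leaving out Spautin-1 replicate 2 gave 23 and 30, and leaving out vehicle replicate 1 gave 57 and 99.

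The split by direction differed with layout, as a description. Of all genes at the level limit, 13.7% were higher and 12.6% lower. Of the 190 members divergent with overlap, 8 were higher (4.21%) and 35 lower (18.4%). Their partners were higher in 29 (15.7%) and lower in 22 (11.9%) of 185 tested. Members inside their partner were higher in 12 (9.45%) and lower in 15 (11.8%) of 127. Convergent overlapping members were higher in 10 (10.2%) and lower in 8 (8.16%) of 98. Members that hold their partner inside them were higher in 3 (7.5%) and lower in 9 (22.5%) of 40. The difference between layouts was not tested. Without Spautin-1 replicate 2 the divergent overlapping members were higher in 7 and lower in 16, and without vehicle replicate 1 higher in 15 and lower in 47. A related class, the divergent transcripts with symbols ending in -DT, had 9 higher (5.84%) and 20 lower (13.0%) of 154 at the same level limit. Their median was -0.16. The -DT share of lower calls was thus near that of all genes at the limit, and the share of higher calls was smaller. Long intergenic RNAs with LINC symbols had 16 higher (13.2%) and 22 lower (18.2%) of 121.

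**Figure D3:**
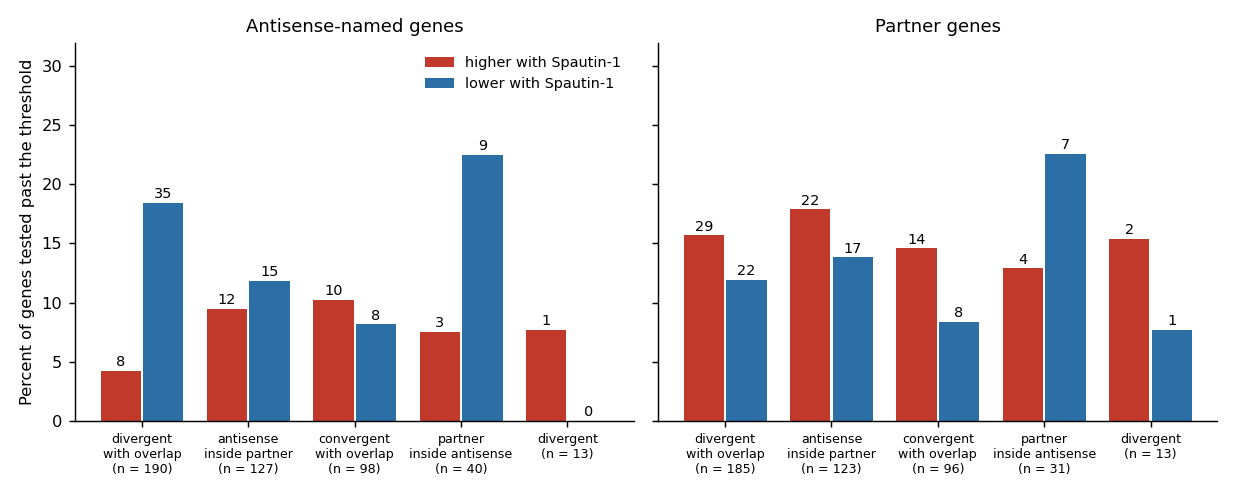
Percent of genes tested that were past the threshold, higher (red) or lower (blue) with Spautin-1, by the layout of the pair, for antisense-named genes (left) and partners (right). Numbers above bars are counts of genes; in the divergent overlapping layout 8 antisense-named genes were higher and 35 lower, and 29 partners higher and 22 lower.

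Among the largest increases, each gene after UST-AS2 shared exons with a partner that also rose. CD44-AS1 lies inside CD44, the receptor for hyaluronan, with 84 shared exonic bases. It stood at 13.1 and 10.6 CPM with vehicle and at 33.9 and 34.7 CPM with Spautin-1 (log2 fold change 1.53, SE 0.15, edgeR adjusted p = 4.11e-05). CD44 stood at 262 and 252 CPM and at 708 and 697 CPM (1.45, SE 0.09, edgeR adjusted p = 1.17e-06). BHLHE40-AS1 starts 977 bases from BHLHE40, a transcriptional repressor, and rose by 1.74 (SE 0.33, edgeR adjusted p = 0.00297) from 0.949 and 1.03 to 3.76 and 2.88 CPM. BHLHE40 rose by 2.37, from 4.26 and 5.69 to 27.3 and 24.1 CPM. TAGAP-AS1 rose by 1.61 and TAGAP, a GTPase-activating protein of activated lymphocytes, by 1.58. FKBP14-AS1 rose by 2.01 with FKBP14, a prolyl isomerase of the endoplasmic reticulum, at 1.63. ERICH3-AS1 rose by 1.73 with ERICH3 at 1.84, and THBS3-AS1 by 1.62 with THBS3, a thrombospondin, at 1.16. TNFRSF14-AS1 rose by 1.57 with TNFRSF14, the receptor HVEM, at 1.65. The TNFRSF14-AS1 call was lost without Spautin-1 replicate 1 (1.21, edgeR adjusted p = 0.138), and the THBS3 call without Spautin-1 replicate 2 (edgeR adjusted p = 0.0547). None of these 7 members had a read bound above 0, so the table does not separate their reads from the partner's. FKBP14-AS1, ERICH3-AS1, TNFRSF14-AS1 and BHLHE40-AS1 reached the level limit only through the Spautin-1 libraries.

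Among the largest decreases, TMSB15B-AS1 fell by 2.16 on the log2 scale (SE 0.43, edgeR adjusted p = 0.00386), from 2.85 and 1.91 to 0.426 and 0.634 CPM, and the thymosin gene TMSB15B fell by 1.64. The TMSB15B call was lost with DESeq2 (adjusted p = 0.0551), without vehicle replicate 2 (edgeR adjusted p = 0.0523) and without Spautin-1 replicate 1 (edgeR adjusted p = 0.119). ALDH1A3-AS1 fell by 1.58 (SE 0.13, edgeR adjusted p = 1.16e-05), from 56.2 and 53.9 to 19.8 and 17.1 CPM. ALDH1A3, a retinaldehyde dehydrogenase, was less abundant, at 8.57, 6.03, 3.70 and 2.28 CPM, and fell by 1.28 (edgeR adjusted p = 0.00662). ALDH1A3-AS1 also shares exonic bases with the kinase gene LRRK1, which was not called (0.03, edgeR adjusted p = 0.883). SBNO1-AS1 fell by 1.55 with SBNO1 at -1.37. RASSF1-AS1, with 83.4% of its exonic bases in exons of the tumour suppressor gene RASSF1, fell by 1.47, and RASSF1 stood at -0.64 (edgeR adjusted p = 0.0508). BAZ2B-AS1 fell by 1.54 and KANSL1L-AS1 by 1.48, with partner changes of 0.14 and -0.28 that did not pass the test. The calls for SBNO1-AS1, BAZ2B-AS1, RASSF1-AS1 and KANSL1L-AS1 rest on few reads and each was lost without Spautin-1 replicate 2 (edgeR adjusted p = 0.0548, 0.103, 0.0837 and 0.144). Without vehicle replicate 2 those of SBNO1-AS1, BAZ2B-AS1 and RASSF1-AS1 were lost too (edgeR adjusted p = 0.21, 0.215 and 0.252), and without Spautin-1 replicate 1 that of SBNO1-AS1 (edgeR adjusted p = 0.0853). Of these 8 largest decreases, all but ALDH1A3-AS1 and IFNG-AS1 reached the level limit only through the vehicle libraries. With DESeq2 those of SBNO1-AS1 and BAZ2B-AS1 were lost as well (adjusted p = 0.0577 and 0.0611).

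PDLIM7-AS1 fell, as did a neighbour that is not the gene it is named for. It shares no exonic base with PDLIM7, while 66.8% of its exonic bases lie in other-strand exons of DOK3, an adaptor of B cell receptor signalling. Its read bound was 0, so its reads are not separated from those of DOK3. PDLIM7-AS1 fell by 1.67 (SE 0.42, edgeR adjusted p = 0.0146), from 1.87 and 1.86 to 0.506 and 0.663 CPM. DOK3 fell by 1.37 (edgeR adjusted p = 0.000175), from 18.2 and 21.0 to 7.86 and 7.38 CPM. PDLIM7, a scaffold protein of the actin cytoskeleton, stood at 18.9, 29.7, 27.3 and 28.1 CPM (0.19, edgeR adjusted p = 0.517). The PDLIM7-AS1 call was lost without Spautin-1 replicate 1 (edgeR adjusted p = 0.0566).

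**Figure D4:**
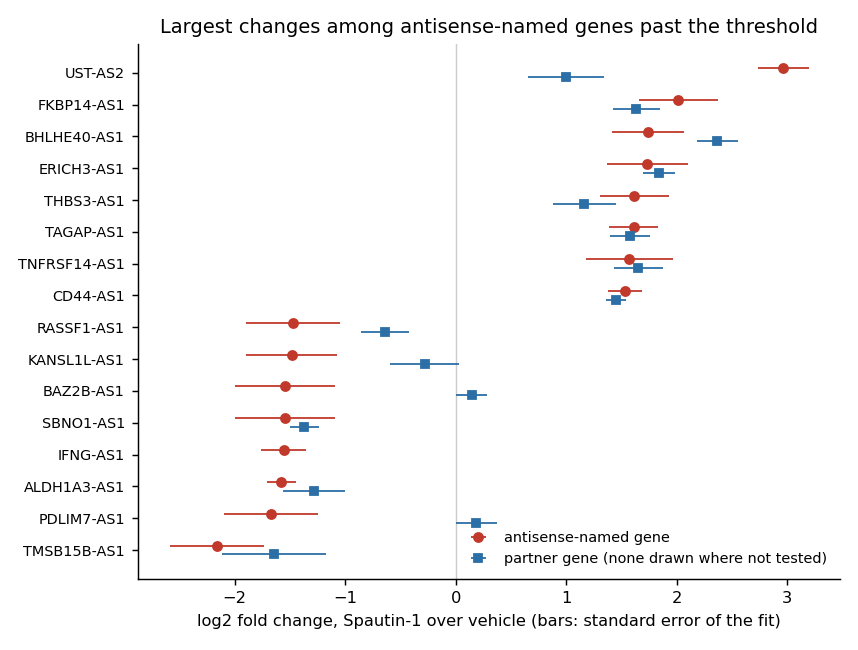
Log2 fold change, Spautin-1 over vehicle (horizontal axis), of the 8 largest increases and 8 largest decreases among members past the threshold (red circles) and of their partners (blue squares), with standard errors of the fit. The increases after UST-AS2 lie near their partners, while BAZ2B-AS1 and PDLIM7-AS1 lie away from partners at 0.14 and 0.19.

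The 5 members with the highest levels all shared exonic bases with other genes, and for CPB2-AS1, PLCG1-AS1 and PRC1-AS1 the most abundant of these was not the named partner. CPB2-AS1 stood at 925, 716, 862 and 811 CPM and was not called (0.03, edgeR adjusted p = 0.889). Its partner CPB2, a plasma carboxypeptidase gene, had at most 0.595 CPM. The exons of CPB2-AS1 overlap those of LCP1, which encodes the leukocyte actin-bundling protein L-plastin and had group means of 1966 and 2137 CPM, and those of the RNA methylation factor gene ZC3H13, with means of 1337 and 1288 CPM. TUBA1B-AS1, NOP14-AS1 and PRC1-AS1 followed, at 608 to 736, 551 to 624 and 232 to 280 CPM, and none was called. PRC1-AS1 shares exonic bases with PRC1, with group means of 610 and 566 CPM, and with ENSG00000284946, with means of 622 and 585 CPM. PLCG1-AS1, the fifth, fell from 287 and 257 to 218 and 204 CPM (-0.37, edgeR adjusted p = 0.0234), while PLCG1, a phospholipase C, stood at 66.8, 65.1, 77.4 and 78.5 CPM (0.24, edgeR adjusted p = 0.143). Its exons also overlap those of TOP1, DNA topoisomerase I, which fell from a mean of 2386 to 1686 CPM (-0.50, edgeR adjusted p = 0.000993). The PLCG1-AS1 call was lost without Spautin-1 replicate 1 (edgeR adjusted p = 0.102) and replicate 2 (edgeR adjusted p = 0.29).

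Partner genes were called in 124 of 444 tested, 69 higher and 55 lower, which is 27.9% against 22.0% of all genes tested. At a mean of at least 1 CPM, 26.3% of all genes and 26.8% of protein-coding genes were called. Leaving out Spautin-1 replicate 2 gave 37 higher and 28 lower, and leaving out vehicle replicate 1 gave 106 and 83. In the 453 pairs with both genes tested, both were higher in 25 and both lower in 25. Opposite calls were made in 2 pairs, POU2F2-AS2 with POU2F2 and ERCC6L2-AS1 with ERCC6L2. The antisense-named gene alone was called in 46 pairs, 8 higher and 38 lower, and the partner alone in 76, 45 higher and 31 lower. Without Spautin-1 replicate 2, 16 pairs were both higher and 10 both lower; without vehicle replicate 1 these were 34 and 47, with 13 opposite.

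Of the 8 pairs called in the same direction with the smallest p-values, 5 rose and 3 fell. SH3BP5-AS1 rose by 0.996 (SE 0.12, edgeR adjusted p = 0.000181), from 42.4 and 39.1 to 76.6 and 85.9 CPM, and SH3BP5, a BTK-binding protein, rose by 1.03. IL6-AS1 rose from 3.14 and 3.03 to 7.80 and 8.19 CPM (1.38, edgeR adjusted p = 0.000884), and the cytokine gene IL6 from 9.46 and 12.6 to 23.9 and 28.3 CPM (1.24, edgeR adjusted p = 0.000472). UQCRB-AS1 rose by 0.67 with UQCRB, a subunit of respiratory complex III, at 0.60. EPB41L4A-AS1 fell from 42.4 and 48.7 to 20.8 and 19.8 CPM (-1.17, edgeR adjusted p = 0.000117) and EPB41L4A from 38.2 and 43.2 to 16.7 and 15.6 CPM (-1.33). NIFK-AS1 fell by 0.96 with NIFK, a nucleolar partner of the proliferation antigen Ki-67, at -0.87. PNN-AS1 fell by 0.99 with PNN, a splicing-associated protein, at -0.53. CD44 and TAGAP, above, complete the 8. All 8 pairs share exonic bases, and the read bound was 0 for each member except EPB41L4A-AS1, at 13.7%. Most or all reads of these members are therefore not separated from those of the genes sharing their exonic bases. BMF-AS1, wholly within exons of BMF, a pro-apoptotic BH3-only gene, was at 0.73 and BMF at 0.75 on the log2 scale. This pair was chosen after its values were seen. The BMF-AS1 call was lost without Spautin-1 replicate 1 (0.68) and without Spautin-1 replicate 2 (0.79).

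Changes of the pair had the same sign in 304 of 453 pairs (67.1%), measured in the same libraries. Across the pairs the 2 changes had a Pearson r of 0.57 and a Spearman rank coefficient of 0.52, as a description. Where exons of the pair shared bases the count was 270 of 398, and where they shared none it was 34 of 55 (61.8%, r 0.31). Where at least 50% of the antisense exons lay in partner exons it was 34 of 47 (72.3%, r 0.72). Among members with a read bound of at least 50% it was 27 of 48 (56.2%, r 0.30). Over all opposite-strand overlapping pairs tested in the table, antisense-named or not, the same sign was seen in 2909 of 4422 with shared exonic bases (65.8%, r 0.44) and in 3810 of 7570 without (50.3%, r 0.05). The share in pairs without shared bases was 63.6% (35 of 55) without vehicle replicate 1, and 49.0% (24 of the 49 pairs left) with a filter of 1 CPM in 2 libraries. For members with a read bound of at least 50% it was 59.2% (29 of 49) and 44.4% (20 of 45) in the same fits.

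**Figure D5:**
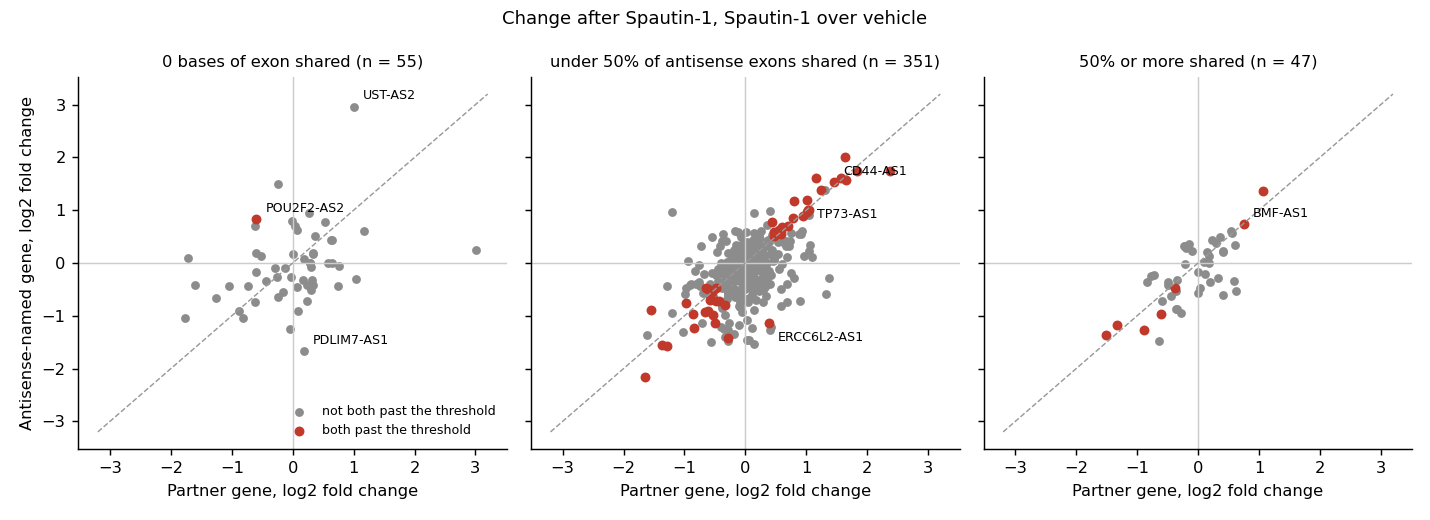
Log2 fold change of the antisense-named gene (vertical) against that of its partner (horizontal) in 453 pairs, split by how much of the antisense exons lies in partner exons; the dashed line marks equal changes and red points are pairs with both genes past the threshold. Of 55 pairs without shared exonic bases, POU2F2-AS2 is the only red point, at 0.82 against -0.60.

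A change in the ratio of the antisense-named gene to its partner was tested in 452 pairs with limma, across 12002 opposite-strand pairs, since the GJD3 pair has identical counts. The planned fit, with no variance trend, called 0 of them. With the trend added after the data were seen, 104 had an unadjusted limma p under 0.05. In that fit the ratio passed in 46 pairs, 10.2% against 14.8% of all pairs fitted. The antisense-named gene was relatively higher in 13 of these and lower in 33. Of the 46, 11 were pairs without shared exonic bases. SLC25A25-AS1 had the smallest p: it stood at 6.90, 8.22, 5.75 and 6.63 CPM, while SLC25A25, a mitochondrial ATP-magnesium carrier, rose from 6.21 and 7.91 to 18.1 and 18.6 CPM (ratio -1.66, SE 0.20, limma adjusted p = 0.00277). ERCC6L2-AS1 fell from 5.67 and 6.36 to 3.09 and 2.36 CPM (-1.14, edgeR adjusted p = 0.00613) as ERCC6L2, a DNA repair helicase, rose from 59.2 and 56.1 to 77.7 and 72.3 CPM (0.38, edgeR adjusted p = 0.0333). The ERCC6L2 call was lost with library size scaling (edgeR adjusted p = 0.0536) and without either Spautin-1 library (edgeR adjusted p = 0.366 and 0.175), and that of ERCC6L2-AS1 without Spautin-1 replicate 2 (edgeR adjusted p = 0.058). RAB33B-AS1, at 5.70, 7.45, 4.55 and 3.46 CPM, was relatively lower than RAB33B, a Golgi GTPase that rose by 0.90 (ratio -1.60, limma adjusted p = 0.0064). RAB33B-AS1 also overlaps NAA15, a subunit of an N-terminal acetyltransferase, which fell from a mean of 325 to 233 CPM (-0.48, edgeR adjusted p = 0.00461). That call was lost without Spautin-1 replicate 2 (edgeR adjusted p = 0.0763). WAC-AS1 was relatively lower than WAC (ratio -0.65, limma adjusted p = 0.00779). With the trend, the number of ratio calls was 0 without vehicle replicate 1 and 1 without Spautin-1 replicate 2, against 49 and 48 without the other libraries.

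Of the 9 members whose named partner is not a gene of the table, HOXA-AS3 and MYL12-AS1 passed the test. HOXA-AS3, across several genes of the HOXA cluster, fell from 59.0 and 84.0 to 31.5 and 33.7 CPM (-1.13, SE 0.16, edgeR adjusted p = 0.000452). MYL12-AS1, over the myosin light chain genes MYL12A and MYL12B, rose from 28.2 and 26.8 to 48.1 and 56.9 CPM (0.93, SE 0.13, edgeR adjusted p = 0.000513). Neither HOXA-AS3 nor MYL12-AS1 had a read bound of at least 50%. Both changes may therefore include reads of genes that share their exonic bases.

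Genes that clear or sense antisense RNA were looked at as 2 lists. Of 24 genes of nuclear RNA decay, 1 rose and 8 fell, with a median of -0.24, against 11.5% higher, 10.5% lower and a median of -0.01 over all genes tested. Among genes at 1 CPM or more, where all 24 lie, 13.7% were higher and 12.6% lower. The exosome subunit gene EXOSC8 rose by 0.46. Those that fell were the exosome subunit genes EXOSC2, EXOSC3 and EXOSC5, the exosome helicase gene MTREX at -0.60, its partner ZFC3H1 at -0.58, and the cap-linked genes SRRT at -0.49, ZC3H18 at -0.50 and NCBP1 at -0.67. Of these 9 calls, those of EXOSC2, EXOSC3, EXOSC5 and EXOSC8 were lost without either Spautin-1 library (that of EXOSC5 also with DESeq2, adjusted p = 0.0635), and those of MTREX, ZFC3H1, ZC3H18 and NCBP1 without Spautin-1 replicate 2. Among genes that bind or edit double-stranded RNA, changes went in both directions. The editing enzyme gene ADARB1 rose by 1.28, and the RNA sensor genes RIGI by 0.73 and IFIH1 by 0.41. OAS1 fell by 1.84, OAS3 by 1.72 and the kinase gene EIF2AK2 by 0.55. The ADARB1 call was lost without Spautin-1 replicate 1, those of IFIH1 and EIF2AK2 without either Spautin-1 library, and that of RIGI without Spautin-1 replicate 2. No part of these genes in the antisense changes was tested.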

How the data were processed

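RNA sequencing covered 2 vehicle and 2 Spautin-1 libraries of SU-DHL-2 cells. TRIzol RNA was made into stranded mRNA libraries, per the labels' protocols. Trimmomatic 0.36, featureCounts from Subread 1.5.1, GRCh38 and edgeR 3.12.1 are named in the submitters' processing notes. The aligner, the gene annotation and the strand and multi-mapping settings were not given in the sources used here. Raw counts were deposited by the authors for each gene, with exon coordinates per the file headers.

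Members and gene lists were chosen with earlier results of these data known. Exon overlaps were computed from the table's own coordinates. Genes were filtered by filterByExpr of edgeR 4.0.16 in R 4.3.3 (minimum count 10, total 15; 18368 kept), scaled by TMM and compared with the quasi-likelihood test, two-sided, Benjamini-Hochberg adjusted, threshold 0.05. The fit has 2 residual degrees of freedom, and an exact permutation test cannot go below 0.333. Pair ratios were tested with limma 3.58.1 on differences of log2 CPM (prior count 2), with the variance trended on the lower gene's level, a choice made after seeing the data; the planned fit had no trend. The procedure was tested on simulated data. Named genes are the 8 largest increases and decreases, 5 highest levels, 8 pairs called the same way by the larger p, pairs called oppositely, 6 smallest ratio p-values and 3 members on each side of the level limit, with partners. Alternatives were other scalings, filters, DESeq2 1.42.0, limma-voom, a replicate block, member subsets and leaving out each library. Promoter windows are from RefSeq on GRCh38.p14. One result is not reported here.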

Additional observations from a re-analysis of the deposited data

How the results depend on the processing

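Leaving out each library in turn gave 53 to 156 members past the threshold (19 to 57 higher, 30 to 99 lower), 65 to 189 partners (37 to 106 higher, 28 to 83 lower), 289 to 320 pairs with changes of the same sign and 0 to 49 ratio calls. The lone library left in a group was assumed to vary like the other group. Of the 103 members past the threshold, 55 were also past it without Spautin-1 replicate 1 and 48 without Spautin-1 replicate 2, and 0 changed sign. Restricting to members at 5 CPM or more gave 66 partners past the threshold (34 higher, 32 lower) and 149 pairs of the same sign. Members sharing no exonic base with an opposite-strand gene gave 4 past the threshold (2 higher, 2 lower), 6 partners (3 and 3) and 16 pairs of the same sign. Members with a read bound of at least 50%, a subset chosen after seeing the data, gave 8 (4 higher, 4 lower), 8 partners (4 and 4) and 27 pairs of the same sign. These subsets hold fewer genes by construction. Ratio tests without the variance trend made 0 calls. With the trend, 104 of 452 ratios had an unadjusted limma p under 0.05.

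Other scalings, filters, DESeq2 and limma-voom gave 91 to 124 members past the threshold. Replicate numbers 1 and 2 recur in both groups, but deviations correlated by 0.110 over 10590 genes and the labels tie no number to a shared culture. With a replicate block, 140 members, 161 partners and 65 ratios passed. Depth limits members near 1 CPM, which is 34.1 to 38.4 reads per library.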
